A study of Mus musculus with 6 samples.

Results

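The 39 genes described here are interferon-stimulated genes, the antiviral and antigen-processing genes that cells switch on when interferon reaches them. They were chosen by name, as every probe that the array design assigns to one of the 39 symbols, with chemokines left out. All 39 were on the array, with 54 of its 55681 probes and 39 of its 34821 gene names. RNA was compared on 6 two-colour arrays, each carrying one mouse mammary cell sample in the red Cy5 channel and a common reference RNA, pooled from 11 mouse cell lines, in the green Cy3 channel.

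The Dll1-high and Dll1-low samples were mammary cells from the CD24+CD29hi gate (P4, cell type MaSC in the labels), called basal cells here for the markers given below, with 1 array each. They came from C57/B6 virgin females of the strain C57/B6:Dll1-mCherry and were divided by how strongly they expressed the mCherry reporter of Dll1, a Notch ligand. The macrophage samples were F4/80+ cells from the mammary glands of virgin females, with 2 arrays from Dll1-conditional KO mice (C57/B6:cKO-Dll1) and 2 from wild type (WT) littermates. F4/80 is a surface protein of mouse macrophages. The labels give no age and no treatment. They do not name the cells that lost Dll1 in the KO mice, the Cre driver or the deleted exons, and they do not say whether animals were pooled or whether replicates came from separate animals. The p-values below therefore measure only the spread between these samples.

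Interferons bind cell surface receptors that signal through Jak kinases to transcription factors of the Stat family. Type I interferon leads to a complex, with Stat2 and Irf9 among its parts, that binds a DNA element called the interferon-stimulated response element. Interferon gamma acts instead through a DNA element called the gamma-activated site. The induced proteins recognise viral RNA, degrade it or block its translation, load peptides for presentation, and feed back on the signal. Macrophages are known for keeping a basal level of this programme.

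To show the DNA on which these factors act, 300-base promoters (250 bases before to 50 bases after the gene start) were taken from RefSeq on GRCm38.p6. A promoter was listed for 31 of the 39 genes. The 6 printed below belong to the 3 genes that were lowest in Dll1-high relative to Dll1-low cells (Rsad2, Oasl1, Ifit1) and the 3 with a listed promoter that were highest (Irf7, Stat2, Oas1g). They read 5′ to 3′ in the direction of the gene, and capitals mark the core of the interferon-stimulated response element, GAAA, any 2 bases and GAAA, on either strand.
Rsad2 (chr12:26456403-26456702, minus strand): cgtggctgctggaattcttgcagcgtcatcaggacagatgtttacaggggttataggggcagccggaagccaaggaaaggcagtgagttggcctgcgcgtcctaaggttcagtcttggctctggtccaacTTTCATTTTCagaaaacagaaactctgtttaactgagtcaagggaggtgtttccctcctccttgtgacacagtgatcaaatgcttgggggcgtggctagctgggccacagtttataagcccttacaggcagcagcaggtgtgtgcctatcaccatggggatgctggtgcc
Oasl1 (chr5:114922990-114923289, plus strand): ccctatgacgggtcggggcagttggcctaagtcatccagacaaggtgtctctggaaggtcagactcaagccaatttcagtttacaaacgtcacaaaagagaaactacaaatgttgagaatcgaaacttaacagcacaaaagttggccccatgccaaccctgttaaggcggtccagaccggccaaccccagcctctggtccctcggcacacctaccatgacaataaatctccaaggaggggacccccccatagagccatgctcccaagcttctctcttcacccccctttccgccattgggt
Ifit1 (chr19:34640639-34640938, plus strand): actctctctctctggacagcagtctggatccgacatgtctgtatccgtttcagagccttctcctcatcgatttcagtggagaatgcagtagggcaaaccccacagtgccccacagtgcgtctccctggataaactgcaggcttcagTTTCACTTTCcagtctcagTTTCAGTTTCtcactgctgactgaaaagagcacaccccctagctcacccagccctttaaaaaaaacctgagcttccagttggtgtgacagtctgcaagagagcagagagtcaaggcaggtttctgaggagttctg
Irf7 (chr7:141266375-141266674, minus strand): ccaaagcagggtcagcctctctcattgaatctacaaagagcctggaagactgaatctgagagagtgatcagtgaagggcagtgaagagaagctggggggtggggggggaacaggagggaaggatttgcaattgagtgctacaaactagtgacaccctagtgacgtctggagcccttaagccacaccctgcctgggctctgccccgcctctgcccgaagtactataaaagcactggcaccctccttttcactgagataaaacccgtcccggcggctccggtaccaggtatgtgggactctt
Stat2 (chr10:128270248-128270547, plus strand): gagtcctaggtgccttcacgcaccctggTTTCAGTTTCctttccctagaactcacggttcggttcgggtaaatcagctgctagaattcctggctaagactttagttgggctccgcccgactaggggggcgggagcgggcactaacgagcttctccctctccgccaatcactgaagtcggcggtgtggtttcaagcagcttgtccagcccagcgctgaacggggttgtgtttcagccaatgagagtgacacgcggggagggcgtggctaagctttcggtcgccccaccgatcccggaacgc
Oas1g (chr5:120887564-120887863, minus strand): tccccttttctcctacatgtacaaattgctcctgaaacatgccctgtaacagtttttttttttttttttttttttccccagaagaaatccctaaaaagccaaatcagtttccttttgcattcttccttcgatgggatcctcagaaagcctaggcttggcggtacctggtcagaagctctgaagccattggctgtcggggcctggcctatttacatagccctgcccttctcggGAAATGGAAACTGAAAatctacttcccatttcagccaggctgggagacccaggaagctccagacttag

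Counted from the gene start, the core lay once in the Rsad2 promoter, from position -120, and once in that of Stat2, from position -222. In the Ifit1 promoter it lay from positions -104 and -85. In that of Oas1g it matched from positions -18 and -12, and these matches overlap each other. The Oasl1 and Irf7 windows held no match. This core occurred in 16 of the 31 genes with a promoter (51.6%), against 3.99% of 27025 genes with one. The core of the gamma-activated site, TTC, any 3 bases and GAA, occurred in 9 of 31 (29.0%), against 9.55% of genes. Both occurred in 4 of the 31. The 4 interferon-gamma induced GTPase genes all had the response element core, and the 3 genes of the immunoproteasome and peptide transport group had none.

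The quantity reported for a gene is the log2 ratio of the sample over the reference RNA, so that 0 means equal signal, and differences between 2 samples are differences of these log2 ratios. Where a gene had several probes, the one of highest mean signal was used. Levels of different genes were not set against each other. On the arrays, Cy5 was well above background for 86.0% and 88.1% of spots in Dll1-high and Dll1-low cells, and for 47.4% to 71.9% on the 4 macrophage arrays. The 12 basal mammary markers reached medians of 4.02 (Dll1-high) and 3.83 (Dll1-low), and lay at 0.25 to 0.58 in macrophages. The 12 macrophage markers reached 3.93 and 3.65 in KO macrophages, against 1.64 and 3.57 in WT macrophages, and lay at -0.12 (Dll1-high) and -0.08 (Dll1-low) in basal cells. Dll1 itself read 3.94 in Dll1-high and 3.26 in Dll1-low cells. It read 0.80 and 2.25 in KO macrophages, against 0.78 and 3.24 in WT macrophages, and these ranges overlap. A second Dll1 probe read 0.38 in Dll1-high and 0.24 in Dll1-low cells, a difference of 0.14 against 0.68 with the first. In macrophages that probe read -0.01 and 0.04 for KO, against -0.03 and 0.02 for WT. WT replicate 1 stood apart, with the lowest macrophage and the highest fibroblast marker levels of the 4 macrophage arrays. It correlated with WT replicate 2 at 0.440 across genes, while KO and WT replicate 2 correlated at 0.973. The first row of the macrophage slide held replicate 1 of both genotypes and the second row replicate 2, so KO minus WT differences of the named genes are also given within each row, first row first.

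Across the 39 genes, the median log2 ratio was -1.01 in Dll1-high and -0.66 in Dll1-low cells. In macrophages it was 0.56 and 1.44 for KO, against 0.85 and 1.02 for WT, replicate 1 first. The level was thus above the reference RNA on each of the 4 macrophage arrays and below it on both basal arrays. The basal and macrophage samples were hybridised on different slides, so the effects of slide and cell type cannot be told apart, and this contrast was not tested. Replicate arrays of 1 genotype differed clearly. KO replicate 1 was 0.77 below KO replicate 2 in the median difference over 37 members, and WT replicate 1 was 0.31 below WT replicate 2 over 38. Of the 39, 38 were well above background on at least 2 macrophage arrays and were tested there. The exception, Oas1g, was not well above background on any macrophage array.

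**Figure D1:**
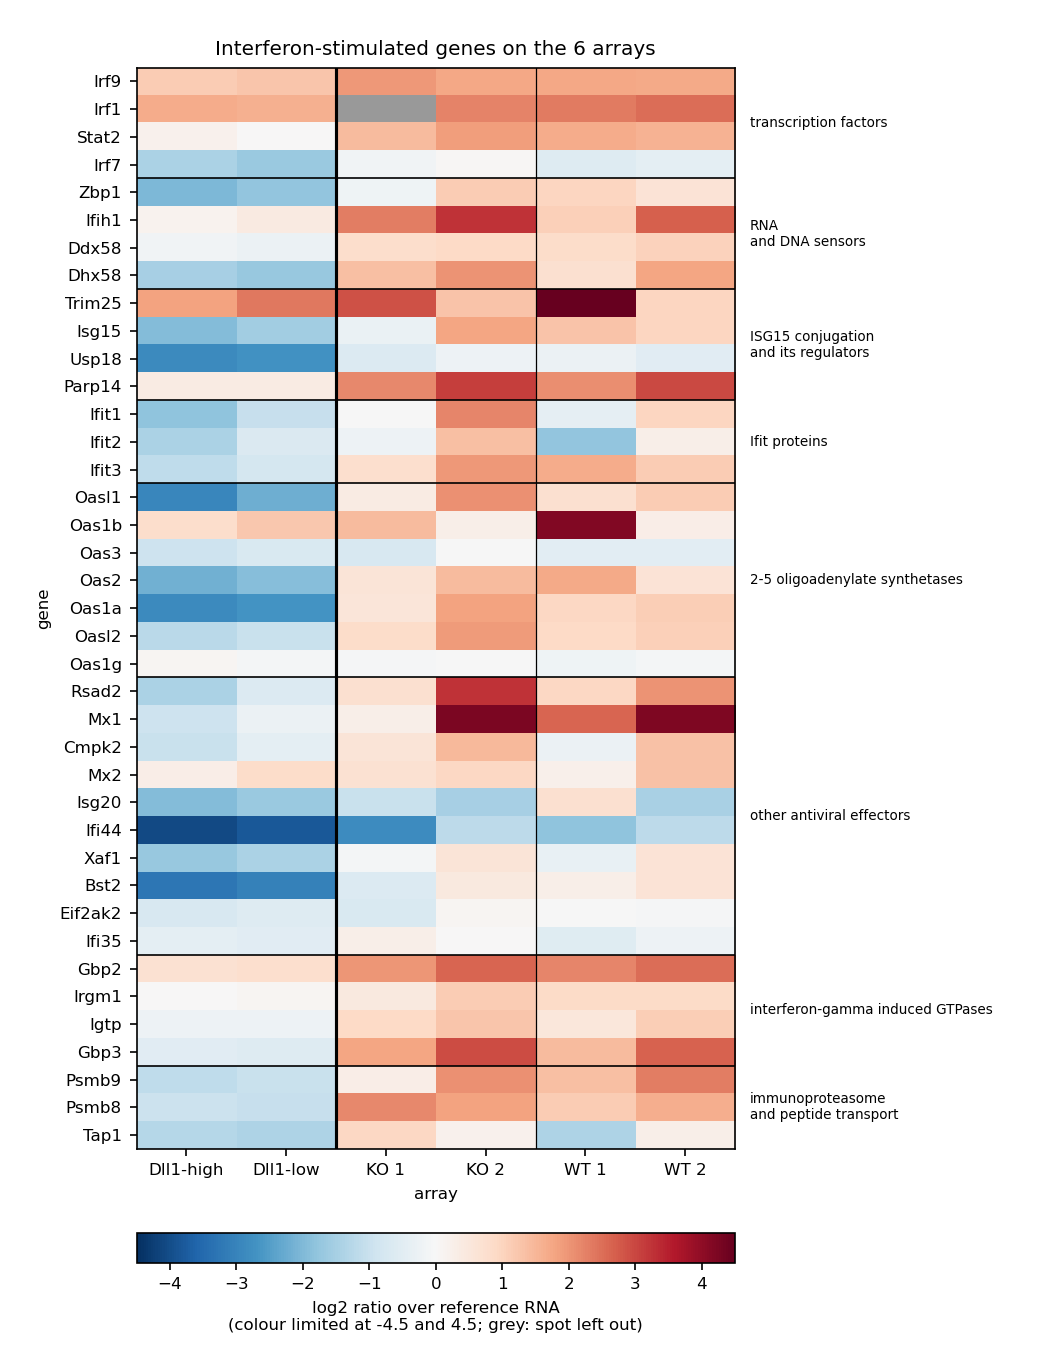
Log2 ratio over the reference RNA for each of the 39 interferon-stimulated genes (down the page, grouped by role) on the 6 arrays (across). Red is above and blue below the reference, and the grey cell is a spot left out. The basal columns are mostly blue and the macrophage columns mostly red, with medians of -1.01 and -0.66 on the basal arrays and 0.56 to 1.44 on the macrophage arrays.

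In Dll1-high against Dll1-low basal cells, most interferon-stimulated genes were lower, by small amounts. Lower values were found for 28 of 39 genes, against 56% of the 32032 genes measured, and higher values for 11, against 44%. The median difference was -0.19, against -0.03 over all genes. At least 1.5-fold lower were 5 genes, Rsad2, Oasl1, Ifit1, Ifit2 and Mx1, where 1.58% of all genes passed that size, and 0 were at least 1.5-fold higher, where 0.687% of all genes were. The 5 became 8 with the scanner's processed signals, where 6.003% of all genes passed, 8 with the authors' deposited table (5.98%), and 3 with the Cy5 channel alone (1.56%). With the main processing, no member was 2-fold apart in either direction, where 0.103% of all genes were 2-fold lower and 0.0937% 2-fold higher. In the authors' deposited table, however, Ifit2 was more than 2-fold lower, at -1.21. Its difference was also -1.21 when the intensities processed by the scanner software were used. With a single array per state there is no biological replicate and hence no p-value. The error available is technical. Over 399 probes spotted 10 times, the SD over spots of this difference had a median of 0.13. By that measure 21 members lay more than 1 SD below the median of all genes (27.5% of all genes did). Another 6 lay more than 1 SD above it (25.7% did) and 12 lay within it. That SD does not cover the gap between the probe used and another of the same gene, up to 0.79 (Cmpk2). Second probes gave smaller differences for Isg20 (-0.09), Oas1a (-0.03), Zbp1 (-0.10) and Ifih1 (-0.13), and a larger one for Psmb9 (-0.24). In bulk RNA, fewer cells of a type and less RNA per cell cannot be told apart.

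The lower genes were mainly direct antiviral effectors. The Ifit proteins, which bind foreign RNA and block its translation, were lower as a group (3 of 3, median -0.76). Ifit1 read -1.80 in Dll1-high and -1.04 in Dll1-low cells, a difference of -0.76. Ifit2 read -1.41 in Dll1-high and -0.66 in Dll1-low cells, also a difference of -0.76. Ifit3 read -1.15 and -0.78, a difference of -0.37. The probes of the 3 genes lie next to one another on chromosome 19 (mm9, 34650244 to 34723855).

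Rsad2 encodes viperin, an enzyme that makes a chain-terminating nucleotide against viral polymerases. It had the largest difference of the 39, with -1.42 in Dll1-high and -0.63 in Dll1-low cells (-0.79), rank 100 from the lowest of 32032 genes. Its neighbour Cmpk2, a mitochondrial nucleotide kinase, read -1.01 in Dll1-high and -0.43 in Dll1-low cells (-0.58). The 2 probes lie on chromosome 12 (mm9, 27127859 to 27164178). A second Cmpk2 probe gave 0.21, so the direction for Cmpk2 depends on the probe.

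The Mx genes, which encode dynamin-like GTPases that trap viral nucleocapsids, lie together on chromosome 16 (mm9, 97668644 to 97782386). Mx1 read -0.93 in Dll1-high and -0.28 in Dll1-low cells (-0.65). Mx2 read 0.28 in Dll1-high and 0.84 in Dll1-low cells (-0.55). Both were lower in Dll1-high cells by about the same amount. The exonuclease Isg20 read -1.94 in Dll1-high and -1.67 in Dll1-low cells (-0.27). The virus-tethering membrane protein Bst2 read -3.25 in Dll1-high and -3.04 in Dll1-low cells (-0.21). With the effectors Ifi44, Xaf1 and Eif2ak2 at -0.26, -0.26 and -0.13, 9 of 10 members of this group of antiviral effectors were lower, and Ifi35 was the exception (0.06). A second Xaf1 probe gave 0.21, so the direction for Xaf1 depends on the probe.

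The 2-5 oligoadenylate synthetases make the short RNA-like messenger that activates RNase L, and 6 of 7 were lower in Dll1-high cells (median -0.23). Oasl1, a relative known in mouse to restrain translation of Irf7, read -2.95 in Dll1-high and -2.19 in Dll1-low cells (-0.76). Oasl2 beside it on chromosome 5 differed by -0.19. Oas1b, known in mouse for resistance to flaviviruses, read 0.78 in Dll1-high and 1.21 in Dll1-low cells (-0.43), and its 3 probes gave -0.43, -0.39 and -0.47. The first and second of these probes overlap on the genome (mm9, 121274109 to 121274168 and 121274127 to 121274185), so they are not separate checks. Oas1a, Oas2 and Oas3 differed by -0.19 to -0.23. Oas1g, at 0.16, was the exception, with 0.07 in Dll1-high and -0.08 in Dll1-low cells.

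Isg15 is a ubiquitin-like protein that is attached to other proteins after interferon. It read -1.93 in Dll1-high and -1.56 in Dll1-low cells (-0.38), but its second probe gave 0.28. Trim25, a ligase for Isg15 that also activates the RNA sensor Ddx58, read 1.81 in Dll1-high and 2.36 in Dll1-low cells (-0.56), and its second probe gave -0.03. Usp18, which removes Isg15 and dampens receptor signalling, differed by -0.15, and the ADP-ribosyltransferase Parp14 by -0.0050. All 4 members of this group were below 0, and 2 of them lay within 1 SD of repeated spots of the median of all genes.

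The transcription factors and sensors were divided in direction. Among the transcription factors 1 of 4 was lower (median 0.11). Irf7, which amplifies type I interferon, read -1.41 in Dll1-high and -1.66 in Dll1-low cells, and its difference of 0.24 was the highest of the 39. Stat2 was at 0.17, Irf1 at 0.05 and Irf9 at -0.12. A second Irf1 probe gave -0.37, the opposite direction. Of the RNA and DNA sensors, Ifih1 and Zbp1 were lower (-0.24 and -0.26), and Ddx58 and Dhx58 higher (0.10 and 0.20). A second Ddx58 probe gave -0.18, so the direction for Ddx58 depends on the probe. All 4 sensors lay more than 1 SD of repeated spots from the median of all genes, and whether these groups differ from the effectors was not tested. Igtp, Irgm1, Gbp2 and Gbp3, GTPases that attack vacuoles holding parasites, all lay between -0.08 and 0.10 with the probes used. A second Irgm1 probe, well above background on both basal arrays, gave -0.45. Igtp has 10 spots, and its difference was 0.0080 with an SD over spots of 0.067. The immunoproteasome subunits Psmb8 and Psmb9 were at 0.07 and -0.14, and the peptide transporter subunit Tap1, also with 10 spots, was at 0.13 with an SD over spots of 0.147.

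**Figure D2:**
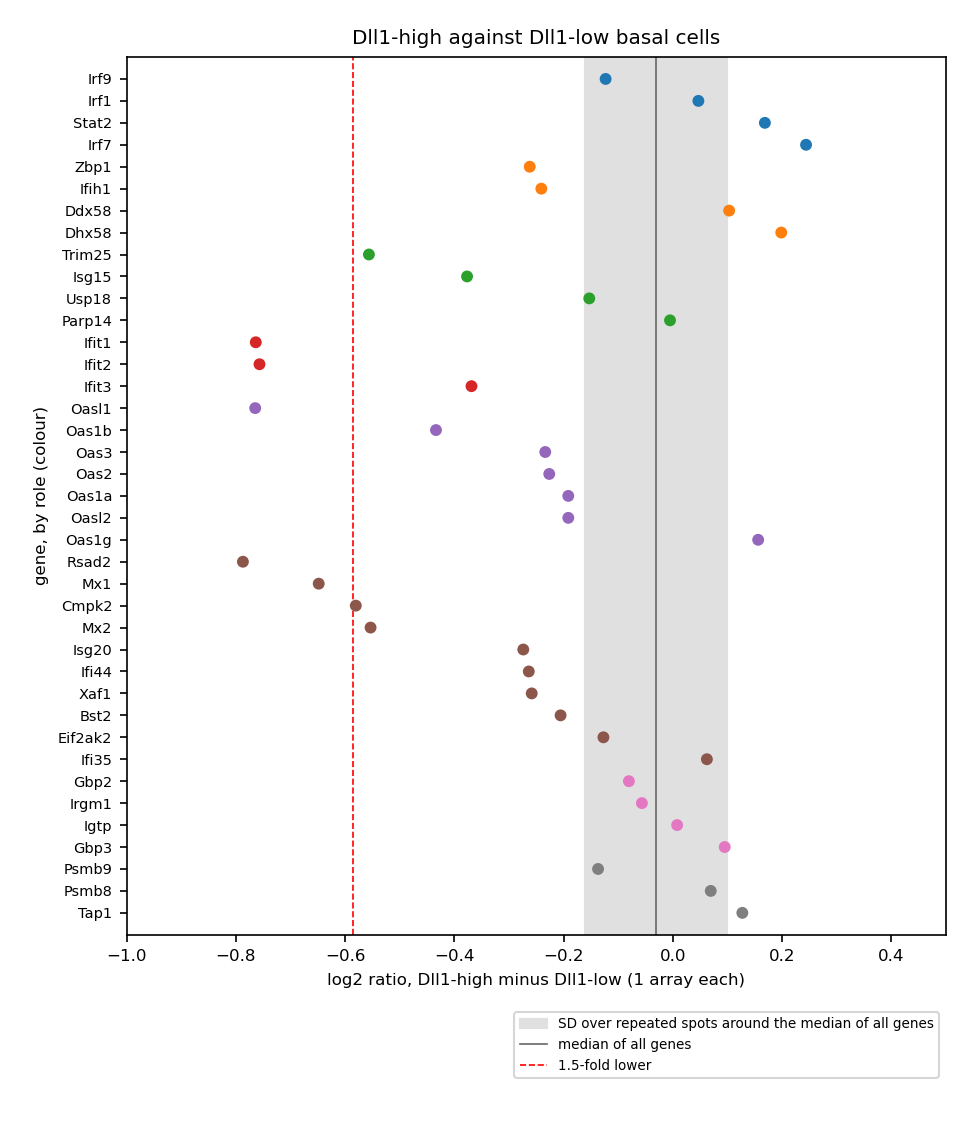
Difference of log2 ratios, Dll1-high minus Dll1-low cells, 1 array each, for the 39 genes coloured and ordered by role (transcription factors at the top, then sensors, Isg15 conjugation, Ifit proteins, oligoadenylate synthetases, other effectors, GTPases and immunoproteasome). The grey band is the median of all genes (-0.03) with the SD over repeated spots (0.13) on each side. Left of the band lie 3 of 3 Ifit genes, 6 of 7 oligoadenylate synthetases and 8 of 10 other effectors, with 5 genes past the dashed 1.5-fold line, and the 4 GTPases lie within it. Each gene is shown by its probe of highest mean signal.

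Holding the promoter motif did not separate lower from other genes in Dll1-high cells. The 16 genes with the response element core had a median difference of -0.16 (11 lower), and the 15 with a promoter and without the core had -0.19 (10 lower). Either side of this comparison includes genes at either end, such as Rsad2 and Stat2 with the core and Oasl1 and Irf7 without it.

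Other interferon-induced genes leaned the same way in the basal cells. The genes that receive, relay or restrain the signal had about as many lower as higher. Of all genes, 56% were lower (median -0.03), 1.58% at least 1.5-fold lower and 0.687% at least 1.5-fold higher. Of a further 53 interferon-induced genes, 39 were lower (median -0.14), with Sp110 (-0.56), Ube2l6 (-0.55) and Ifi203 (-0.50) lowest and 0 past 1.5-fold. Other probes gave -0.36 and 0.15 for Sp110 and -0.10 for Ube2l6. Receptors and Jak-Stat transducers had 5 of 11 lower (median 0.04), with the interferon lambda receptor Ifnlr1 at 0.44 and Jak2 at -0.25. The sensing genes upstream of interferon had 7 of 15 lower (median 0.0056), and the negative regulators 4 of 9 (median 0.03). Of 8 interferon genes measured, 3 were lower and 5 higher in Dll1-high cells (median 0.03). Ifnb1 had the largest difference among them, with 0.68 in Dll1-high and 1.25 in Dll1-low cells (-0.57).

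Markers of several other cell types were also lower in Dll1-high cells. Of 10 fibroblast markers 9 were lower in Dll1-high cells (median -0.62), 6 of them at least 1.5-fold. Of all genes, 56% were lower and 1.58% at least 1.5-fold lower. The fibroblast markers were measured on both arrays. Their median level was -1.15 in Dll1-high cells (range -4.64 to 2.23) and -0.53 in Dll1-low cells (range -3.60 to 2.80), and all 10 were well above background on both arrays. Of 5 monocyte markers measured 4 were lower (median -0.59), 3 of them at least 1.5-fold. One of the 3, Ms4a4c (-0.62), gave -0.06 and -0.30 with its other probes. Ccr2, a defining receptor of monocytes, was not well above background on either array. Luminal markers (median -0.22) and endothelial markers (median -0.28) were lower too, while macrophage markers were near the rest (median -0.08). B cell markers were lower in 5 of 6 (median -0.15), and dendritic cell markers in 8 of 8 by small amounts (median -0.09). T and natural killer cell markers were lower in 3 of 8 (median 0.04). The part of these cells in the lower interferon-stimulated genes was not tested.

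In macrophages, limma's moderated test called no interferon-stimulated gene different between KO and WT. It called no gene at all with 2 arrays per genotype, so it does not show that these genes were equal. At an adjusted p of 0.05, 0 of 38 genes were called (0% of the 24980 genes tested), and 0 of 38 had an unadjusted p under 0.05, which 0.128% of all genes had. KO was higher in 21 of 38 (40.1% of all genes) and lower in 17 (59.9%), with a median difference of 0.07 against -0.10 over all genes. In 3 genes both KO arrays lay above both WT arrays (6.57% of all genes), and in 0 both lay below (13.3%). The array medians of the 39 genes had a pooled SD of 0.45 within genotype, larger than that difference. The count of 21 became 35 with median centring in place of loess (80.0% of all genes were then higher), 33 when KO replicate 1 was left out and 10 when KO replicate 2 was.

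The 3 genes with KO arrays above both WT arrays were Psmb8, Ifi35 and Irf7. This count is close to the share over all genes (6.57%), so it does not set the members apart. Psmb8, an immunoproteasome subunit, read 2.18 and 1.81 in KO macrophages, against 1.13 and 1.62 in WT macrophages. Its difference was 0.62 (SE 0.37, limma adjusted p 0.999), with 1.05 and 0.19 in the rows, and it was -0.40 with the Cy5 channel alone. Ifi35, a partner of the interferon-induced protein Nmi, read 0.28 and 0.02 in KO macrophages, against -0.56 and -0.24 in WT macrophages (difference 0.55, SE 0.34, rows 0.83 and 0.26). Irf7 read -0.17 and 0.05 in KO macrophages, against -0.59 and -0.43 in WT macrophages (difference 0.45, SE 0.32). Irf7 was the one of the 3 with nearly equal differences in both slide rows, 0.42 in the first and 0.48 in the second. With the Cy5 channel alone, the KO minus WT difference was 0.083 for Irf7 and 0.51 for Ifi35. The adjusted p of all 38 genes was 0.999 or above.

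The other members with the smallest p overlapped between the genotypes. Tap1, which carries peptides into the endoplasmic reticulum, read 0.93 and 0.18 in KO macrophages, against -1.38 and 0.25 in WT macrophages. Its difference of 1.13 (SE 0.69) was 2.32 in the first row and -0.06 in the second, and 0.31 without WT replicate 1. Psmb9, the immunoproteasome subunit encoded beside it on chromosome 17, read 0.31 and 2.04 in KO macrophages, against 1.35 and 2.29 in WT macrophages, and differed by -0.64 (SE 0.75, rows -1.04 and -0.25). Its second probe gave -0.013. It was not well above background in KO replicate 1, and its direction was the opposite of that of Tap1 and Psmb8.

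Ifih1, the sensor of long double-stranded RNA, read 2.32 and 3.24 in KO macrophages, against 1.06 and 2.69 in WT macrophages. It differed by 0.90 (SE 0.72), with 1.25 in the first row and 0.55 in the second, and its second probe gave 0.19. Its relative Dhx58 read 1.37 and 2.02 in KO macrophages, against 0.72 and 1.78 in WT macrophages (difference 0.45, SE 0.53, rows 0.65 and 0.24). Both sensors were higher in KO in each row, with overlapping groups.

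Ifit2 read -0.21 and 1.34 in KO macrophages, against -1.78 and 0.28 in WT macrophages, and was not well above background in WT replicate 1. Its difference was 1.31 (SE 0.94), with 1.56 and 1.06 in the 2 rows. Ifit1 read -0.0034 and 2.21 in KO macrophages, against -0.39 and 0.97 in WT macrophages (difference 0.81, SE 0.95, rows 0.39 and 1.23). Both genes were higher in KO within each row, and both varied more between replicates than between genotypes. Isg20 read -0.99 and -1.48 in KO macrophages, against 0.71 and -1.47 in WT macrophages (difference -0.86, SE 0.83). Its rows gave -1.71 and -0.0098, and its second probe gave 0.21, the opposite direction. Bst2 read -0.60 and 0.45 in KO macrophages, against 0.26 and 0.63 in WT macrophages (difference -0.52, SE 0.49), with -0.86 and -0.18 in the rows. With median centring in place of loess, Isg20, Bst2 and Psmb9 were higher in KO (0.37, 0.67 and 0.48).

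The 2 slide rows gave different results, with most interferon-stimulated genes higher in KO in the second row and not in the first. In the second row, KO replicate 2 was higher than WT replicate 2 in 28 of 38 genes (47.4% of all genes), with a median of 0.25 against -0.01 over all genes. At least 1.5-fold higher were 9 of 38, where 1.41% of all genes were, and 0 were 1.5-fold lower (2.68% of all genes). In the first row, KO replicate 1 was higher than WT replicate 1 in 15 of 37 genes (41.1% of all genes), with a median of -0.22 against -0.16 over all genes. There, 7 genes were at least 1.5-fold higher (17.3% of all genes) and 12 at least 1.5-fold lower (29.9%). Each row has 1 array per genotype, so neither difference has a replicate check. The same direction in both rows was seen for 18 of 37 genes, 12 higher (18.5% of all genes) and 6 lower (29.8%), and the other 19 had opposite directions.

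The 9 genes that were at least 1.5-fold higher in the second row were Rsad2, Ifit1, Ifit2, Oasl1, Oas2, Oasl2, Isg15, Ifit3 and Oas1a. Rsad2 read 3.27 in KO and 2.01 in WT replicate 2, a difference of 1.26, and 0.71 in KO and 0.93 in WT replicate 1, a difference of -0.22. Oasl1 differed by 0.92 in the second row, with 2.07 in KO and 1.14 in WT, and by -0.38 in the first, with 0.35 in KO and 0.74 in WT. Isg15 read 1.77 in KO and 0.96 in WT replicate 2, and -0.32 in KO and 1.27 in WT replicate 1, so its differences were 0.81 in the second row and -1.58 in the first. Its second probe read 1.39 in KO and 0.26 in WT replicate 2, and -1.06 in KO and -0.15 in WT replicate 1. Both Isg15 probes thus had the same direction within each row. Over both rows together, the KO minus WT difference was 0.11 with the second probe and -0.39 with the first. Of the 9, only Ifit1 and Ifit2 were higher in KO in the first row as well. The Ifit proteins (3 of 3, median 1.06) and the oligoadenylate synthetases (5 of 6, median 0.76) led the second row, and 5 of the 10 other effectors were higher there (median 0.03).

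The remaining named effectors overlapped between the genotypes. Mx1 read 0.26 and 4.24 in KO macrophages, against 2.61 and 4.19 in WT macrophages, and was not well above background in KO replicate 1. Its differences were -2.35 in the first row and 0.05 in the second. Mx1 thus differed far more between the KO replicates than between the genotypes in the second row. Mx2 read 0.70 and 0.94 in KO macrophages, against 0.25 and 1.32 in WT macrophages (rows 0.45 and -0.38). Cmpk2 read 0.56 and 1.48 in KO macrophages, against -0.27 and 1.33 in WT macrophages (rows 0.83 and 0.15). Ifit3 read 0.75 and 1.96 in KO macrophages, against 1.67 and 1.16 in WT macrophages (rows -0.93 and 0.80). Irf1 had its KO replicate 1 spot left out as an outlier, and its fit used 3 arrays.

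**Figure D3:**
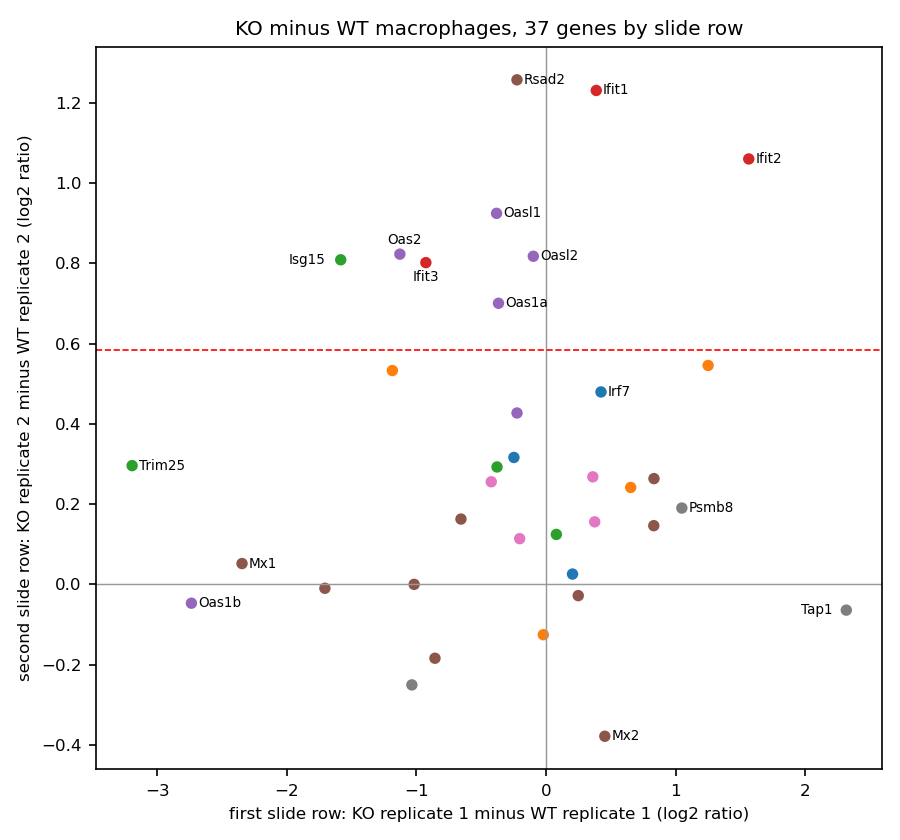
KO minus WT difference of log2 ratios for 37 interferon-stimulated genes, with the first slide row (replicates 1) on the horizontal and the second row (replicates 2) on the vertical axis, coloured by role as in the plot of basal differences. Points above the dashed line are the 9 genes at least 1.5-fold higher in KO in the second row, and most of them lie left of 0 on the horizontal axis.

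Of 6 interferon genes tested, 2 were higher and 4 lower in KO (median -0.10), and 0 were called. The 2 higher ones were Ifnb1 and Ifng, and both varied widely between replicates. Ifnb1, the first interferon that many cells release, read 3.12 and 6.31 in KO macrophages, against 1.03 and 5.31 in WT macrophages. Its difference was 1.55 (SE 1.87), with 2.09 in the first row and 1.00 in the second. Ifng, which T and natural killer cells make, read 4.18 and 2.78 in KO macrophages, against 0.88 and 3.34 in WT macrophages (difference 1.37, SE 1.03), with 3.30 in the first row and -0.56 in the second. T and natural killer cell markers had medians of 1.91 and 0.76 in KO macrophages, against 0.72 and 0.77 in WT macrophages, and their part in the Ifng value was not tested. Among the pathway lists, 6 of 11 receptors and transducers (median 0.13) and 4 of 15 sensing genes (median -0.22) were higher in KO. So were 32 of 53 further interferon-induced genes (median 0.13), and 0 genes of these lists were called. Of all genes, 40.1% were higher and 59.9% lower in KO (median -0.10), and 0% were called. The further interferon-induced genes had row medians of 0.15 and 0.01, beside -0.22 and 0.25 for the 39 genes, and whether the lists differ was not tested.

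Cell type markers also differed between the macrophage arrays. Of all genes, 40.1% were higher and 59.9% lower in KO, with 41.1% higher in the first row and 47.4% in the second. Fibroblast markers had medians of -0.57 and -0.44 in KO replicates 1 and 2, against 0.81 and -1.15 in WT replicates 1 and 2. They were lower in KO in the first row (10 of 10, median -1.37) and higher in the second (9 of 9, median 0.48). Macrophage markers were higher in KO for 10 of 11 (median 0.58, rows 0.50 and 0.38), and endothelial markers lower for 10 of 10 (median -0.77). Monocyte markers had medians of 3.83 and 3.72 in KO macrophages, against 2.92 and 3.99 in WT macrophages. B cell markers had medians of 1.67 and 0.64 in KO macrophages, against 0.45 and 0.70 in WT macrophages, with 6 of 6 higher in KO in the first row and 2 of 6 in the second. T and natural killer cell markers were higher in KO for 6 of 8 in the first row and 5 of 8 in the second. The part of these cells in the interferon-stimulated gene values was not tested.

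**Figure D4:**
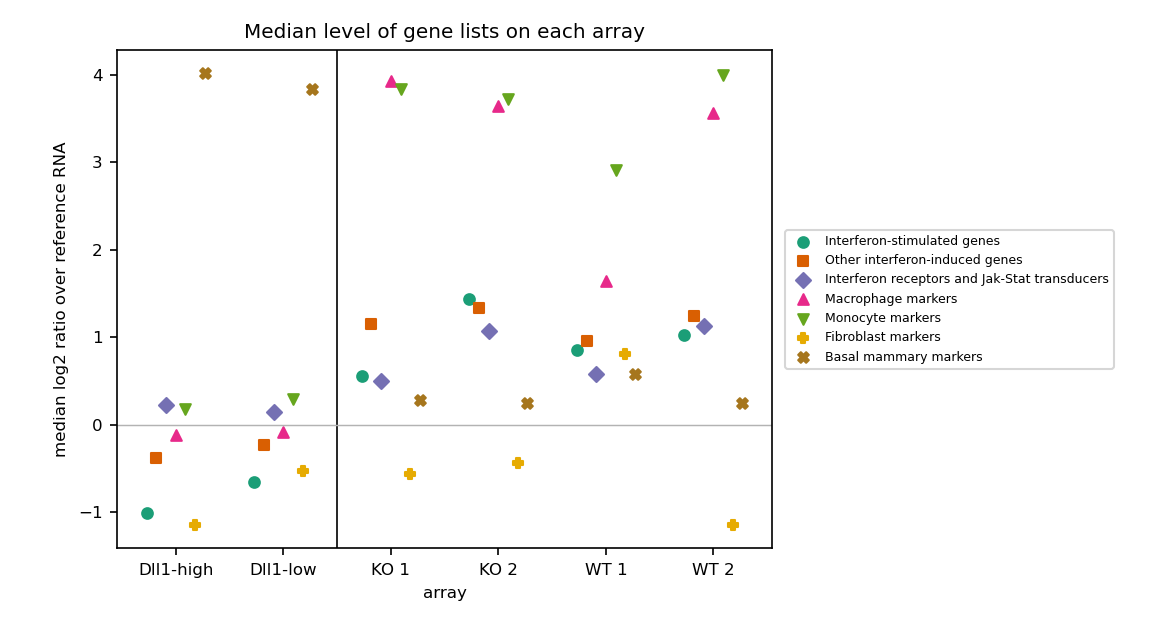
Median log2 ratio over the reference RNA of 7 gene lists on each of the 6 arrays. WT replicate 1 has the lowest macrophage marker median (1.64) and the highest fibroblast marker median (0.81) of the macrophage arrays, while its interferon-stimulated gene median (0.85) lies between those of KO replicates 1 and 2 (0.56 and 1.44).

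Trim25 and Oas1b had a profile that set them apart from the other members. Trim25 read 2.85 and 1.27 in KO macrophages, against 6.05 and 0.97 in WT macrophages, a difference of -3.19 in the first row and 0.30 in the second. Oas1b read 1.42 and 0.27 in KO macrophages, against 4.16 and 0.31 in WT macrophages, a difference of -2.74 in the first row and -0.05 in the second. WT replicate 1 exceeded the other 3 macrophage arrays by more in these genes than in any other member. The 3 Oas1b probes gave 4.16, 4.07 and 4.32 there, but the other Trim25 probe gave 1.51 in WT replicate 1 and 1.69 to 2.13 on the other macrophage arrays.

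The same profile appeared in a probe of Sp110, a nuclear body protein, of Ube2l6, the conjugating enzyme for Isg15, and of Ms4a4c, a monocyte membrane protein. These were picked after their values were seen. The Sp110 probe read 3.40 and 1.19 in KO macrophages, against 6.38 and 0.95 in WT macrophages. The Ube2l6 probe read 2.08 and 0.95 in KO macrophages, against 4.03 and 0.95 in WT macrophages. The Ms4a4c probe read 3.002 and 1.31 in KO macrophages, against 6.11 and 1.08 in WT macrophages. Other probes of each of these 3 genes read differently, with 1.13 and 1.95 for Sp110, -0.20 for Ube2l6, and 2.14 and 3.54 for Ms4a4c in WT replicate 1. None of these spots was marked as saturated. In the basal pair the probes with this profile were lower in Dll1-high cells. They gave -0.56 (Trim25), -0.56 (Sp110), -0.55 (Ube2l6) and -0.62 (Ms4a4c), with -0.47 to -0.39 for Oas1b. The part of this profile in the basal differences was not tested. Without Trim25 and Oas1b, 26 of 37 members were lower in Dll1-high cells (median -0.19), and 21 of 36 were higher in KO (median 0.10).

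**Figure D5:**
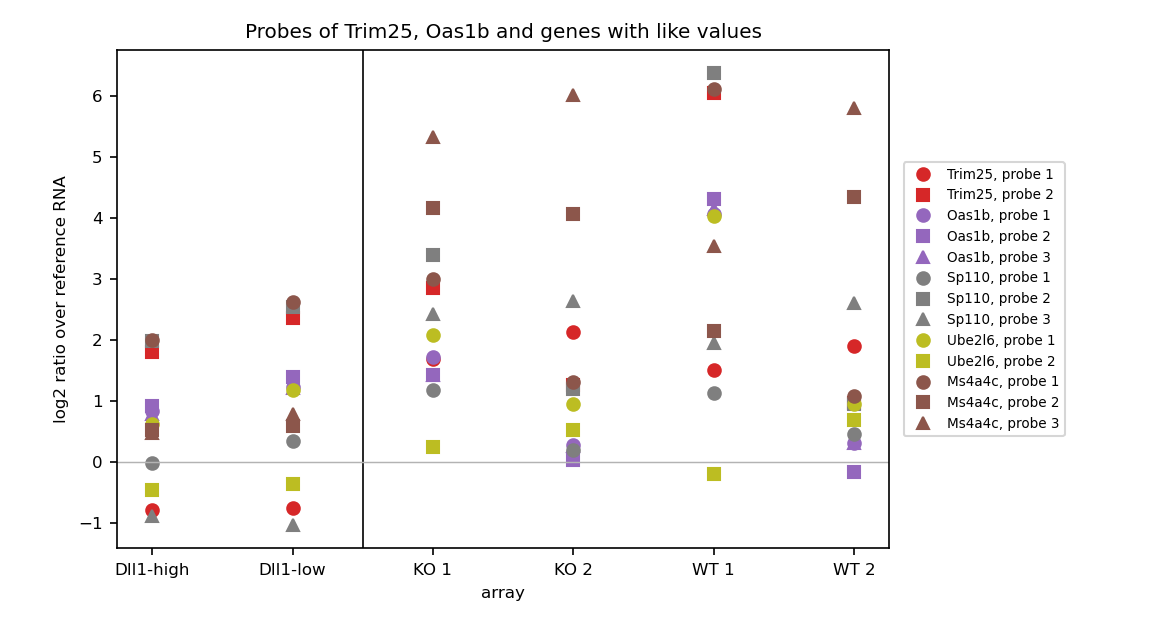
Log2 ratio over the reference RNA on the 6 arrays for each probe of Trim25, Oas1b, Sp110, Ube2l6 and Ms4a4c. In WT replicate 1, one probe of Trim25, Sp110 and Ms4a4c each lies between 6.05 and 6.38, while their other probes lie between 1.13 and 3.54.

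The basal and the macrophage differences did not follow each other. Over the 38 genes measured in both, the Spearman correlation of the Dll1-high minus Dll1-low and the KO minus WT difference was 0.17, a description over genes that are not independent. Genes lower in Dll1-high cells were higher in KO macrophages in 13 cases and lower in 15. The Dll1-high and Dll1-low pair shares no array with the KO and WT pairs.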

How the data were processed

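Per the file headers, the scanner output came from Agilent Feature Extraction, version 11.0.1.1 on the basal arrays and 12.0.2.2 on the macrophage arrays (the submitters' processing notes give 11.0), with probe positions on mm9. The deposited spot and background columns hold raw intensity. A further deposited pair of columns holds intensity that the scanner software had corrected for background and dye. The deposited log ratio is the log10 of sample over reference. The authors' deposited value table is on the log2 scale, sample over reference: it followed the scanner ratio with a slope of 1.00 to 1.01 and had column medians of -0.117 to 0.140.

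Median signals were corrected with normexp (offset 50) and loess-normalized within each array (limma 3.58.1, R 4.3.3), leaving out control and outlier spots. Dyes were not swapped, so a probe's dye bias stays in its ratio. Median signals replaced the planned mean signals, which the macrophage files do not give. Genes needed Cy5 well above background on 1 of 2 basal or 2 of 4 macrophage arrays. KO and WT were compared with limma's lmFit and eBayes and Benjamini-Hochberg adjustment over all genes, and the basal pair by its difference. The number of arrays limits the precision. The procedure was tested on simulated data. Alternatives changed the background, normalization, probe choice, filter and arrays. Values on every array are given for the 12 members with the largest basal difference. For the 12 with the smallest macrophage p, values on every macrophage array are given. The 39 members and all lists were chosen with earlier results of these data known. Promoters are those of RefSeq on GRCm38.p6, matched by symbol. Same-numbered macrophage arrays lay in the same slide row, and their deviations correlated at 0.595, with only 2 pairs.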

Additional observations from a re-analysis of the deposited data

How the results depend on the processing

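In the basal pair, the median difference of the 39 genes (-0.198 to -0.147) and the number lower (25 to 30) kept their direction under every alternative run. Leaving out Cmpk2, Ddx58, Irf1, Isg15 and Xaf1, whose probes disagree in sign, an alternative chosen after seeing the data, gave 25 lower of 34. The number at least 1.5-fold lower was 8 with the scanner's processed signals (6.003% of all genes), 8 with the authors' value table (5.98%) and 3 with the Cy5 channel alone (1.56%), against 5 (1.58%); the cause was not tested.

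For KO against WT, 0 members were called under every alternative. Median centring without loess gave a median over all genes of 0.47, against -0.10 with loess, a members' median of 0.99, and 35 members higher in KO, with 80.0% of all genes higher. Relative to all genes, the members stood 0.17 higher with loess and 0.52 higher with median centring. Single arrays decided the count: leaving out 1 array at a time gave members' medians of -0.30 to 0.44, with 33 higher without KO replicate 1, 10 without KO replicate 2, 19 without WT replicate 1 and 22 without WT replicate 2. A lone array is then assumed to vary like the other group. Under that centring Isg20 (0.37), Bst2 (0.67) and Psmb9 (0.48) reversed, and with Cy5 alone Psmb8 (-0.40). Over the 4 fits that leave out 1 array, reversals were seen for Ifit1 (-0.30 to 1.91), Oas1b (-3.31 to 0.53), Isg20 (-1.95 to 0.23), Bst2 (-1.04 to 0.0029), Psmb9 (-1.51 to 0.22) and Dhx58 (-0.082 to 0.98). The opposite sign came without KO replicate 1 for Bst2 and Psmb9, without KO replicate 2 for Ifit1, and without WT replicate 1 for Oas1b, Isg20 and Dhx58. With a replicate block the median stayed at 0.07 with 21 higher and 0 called; 1 member and 153 genes had an unadjusted p under 0.05, against 0 and 32 without it. The 9 genes of the second row (1.41% of all genes) numbered 9 to 11 under 6 alternatives chosen after seeing the data, but 11 came with 8.40% of all genes (processed signals), 8.92% (authors' table) and 3.86% (Cy5 alone). Weak Cy5 on the macrophage arrays, at 47.4% of spots well above background on the weakest, limits what low members can show.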
